A study of Homo sapiens with 18 samples.

Results

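The polyamine genes described here are 10 of the 60709 genes with counts in the deposited table. They are SAT1, SMOX and PAOX, which break polyamines down, ODC1, AMD1, SRM and SMS, which make them, and OAZ1, OAZ2 and AZIN1, which set the stability of ornithine decarboxylase. The list was taken whole, and it was taken up because the SAT1 response to erastin differed between the lines in these libraries. The control and erastin values of SAT1 therefore chose the list and are given as a description, with no test. All 10 genes passed the filter on low counts, PAOX through sh-LUC libraries alone.

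Putrescine, spermidine and spermine are small positively charged amines that bind nucleic acids and are needed for growth. Ornithine decarboxylase (ODC1) makes putrescine from ornithine, S-adenosylmethionine decarboxylase (AMD1) supplies the aminopropyl group, and spermidine synthase (SRM) and spermine synthase (SMS) add it. SAT1 acetylates spermidine and spermine for export or for oxidation by PAOX, SMOX oxidises spermine directly, and both oxidases release hydrogen peroxide. Antizymes (OAZ1, OAZ2) bind ornithine decarboxylase and send it to the proteasome, and the antizyme inhibitor AZIN1 binds the antizymes. SAT1 has been tied to lipid peroxidation and ferroptosis, an iron-dependent form of cell death.

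RNA was measured in MDA-MB-231, a human triple-negative breast cancer line, in 6 groups of 3 libraries each. Cells carried a hairpin against luciferase (sh-LUC, given as wild type in the genotype label) or against IGFBP6 (sh-IGFBP6), an IGF-binding protein. Each line received 2.5 µM erastin, which blocks cystine uptake, 200 µM docosahexaenoic acid (DHA, an omega-3 fatty acid), or vehicle (DMSO and ethanol), for 24 h. Only 1 hairpin line per target is labelled, how the lines were derived is not stated, and the labels name no separate cultures for the replicates. The p-values therefore measure the spread between these libraries, which may be technical.

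Levels are in CPM, counts relative to the TMM-scaled library size. In 17 libraries the gene counts summed to between 2708143 and 7977429, and MT-RNR1 and MT-RNR2, the ribosomal RNAs of the mitochondrion, took between 0.0349% and 0.504% of them. Replicate 3 of sh-IGFBP6 erastin stood apart, with 609936 counts, 54.4% of them from those RNAs, and 400 counts over all 10 polyamine genes. There 1 count is 3.81 CPM, so a zero for SMOX or PAOX in it does not set it apart from levels of a few CPM. Results on that group are given with and without it for most polyamine genes, and only in part for other genes. The targeted gene IGFBP6 stood at 12.3 to 20.9 CPM in sh-LUC and at 0.42 to 3.81 CPM in sh-IGFBP6, the highest of these being the value of 1 count in that replicate 3. The markers of MDA-MB-231 (VIM, CD44, KRT18, KRT8, FN1) all had counts in both lines. They summed to between 4559 and 5922 CPM in sh-LUC and between 2115 and 2939 CPM in sh-IGFBP6. The 5 genes listed as low or absent in it (EPCAM, CDH1, ESR1, PGR, ERBB2) summed to between 83.4 and 116 CPM in sh-LUC and between 76.4 and 106 CPM in sh-IGFBP6. These sums do not give the level of each gene. The leukocyte markers summed to at most 2.83 CPM and the endothelial markers to at most 5.67 CPM. The fibroblast markers summed to between 15.1 and 41.0 CPM in sh-LUC and at most 12.3 CPM in sh-IGFBP6, where COL1A2 was at 0. The part of these marker levels in the line differences was not tested. In bulk RNA, less RNA per cell and fewer cells of a kind cannot be told apart.

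The promoter-side sequences of SAT1, ODC1 and SRM are shown because SAT1 and ODC1 differed widely between the lines and SRM moved in opposite directions under erastin. They are RefSeq windows on GRCh38.p14, cut to the bases before the start of the gene that lie outside protein-coding exons, and read 5′ to 3′ on the gene's strand. Capitals mark CACGTG, the E-box bound by MYC. The SAT1 window is chrX:23782923-23783172 on the plus strand, the ODC1 window is chr2:10448505-10448577 on the minus strand, and the SRM window is chr1:11060025-11060268 on the minus strand.
SAT1: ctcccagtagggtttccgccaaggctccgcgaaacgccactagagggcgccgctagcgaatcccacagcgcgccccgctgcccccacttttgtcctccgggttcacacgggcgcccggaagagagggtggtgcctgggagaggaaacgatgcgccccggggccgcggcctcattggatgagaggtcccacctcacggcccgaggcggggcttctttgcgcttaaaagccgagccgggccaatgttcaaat
ODC1: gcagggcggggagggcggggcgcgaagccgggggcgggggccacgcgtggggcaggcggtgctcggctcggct
SRM: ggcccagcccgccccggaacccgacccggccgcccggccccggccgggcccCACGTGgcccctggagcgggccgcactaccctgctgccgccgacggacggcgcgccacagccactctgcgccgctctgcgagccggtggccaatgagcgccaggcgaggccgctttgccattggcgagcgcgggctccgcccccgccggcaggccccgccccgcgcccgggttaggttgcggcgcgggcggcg
CACGTG, the ATF4-type motif TGATGNAA and the antioxidant-response core TGACNNNGC were searched on both strands in the 250 bases upstream of each start. Windows existed for 7 of the 10 genes (SMOX, PAOX and AZIN1 had none), and CACGTG was found at SRM and in 1 of the 2 windows of ODC1. The search took all 250 bases of a window, and the ODC1 stretch printed is 73 bases of 1 window. That stretch holds no CACGTG, and which ODC1 window held it is not given here. No window of the 7 held either other motif. Among 35116 windows of that length, 6.345% held CACGTG, 3.144% TGATGNAA and 10.91% TGACNNNGC. A match is a description and not a measured binding site.

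SAT1, the acetyltransferase, lies on chromosome X at 23783173 to 23786226 (GRCh38, plus strand). In sh-LUC it stood at 71.1, 69.4 and 87.7 CPM under vehicle, 79.8, 78.9 and 77.9 CPM under erastin and 55.6, 49.7 and 52.3 CPM under DHA. In sh-IGFBP6 it stood at 21.1, 23.1 and 20.9 CPM under vehicle, 90.6, 126 and 91.4 CPM under erastin and 69.1, 64.2 and 67.2 CPM under DHA. Untreated sh-IGFBP6 libraries were thus the lowest of all 18 and sh-IGFBP6 erastin libraries the highest, with replicate 2 the highest of these. In rising order of means the groups were sh-IGFBP6 control (21.7 ± 1.23 CPM, SD, n = 3), sh-LUC DHA (52.5 ± 2.98), sh-IGFBP6 DHA (66.8 ± 2.49), sh-LUC control (76.1 ± 10.1), sh-LUC erastin (78.8 ± 0.957) and sh-IGFBP6 erastin (102.54 ± 19.961). Only sh-LUC control and sh-LUC erastin overlapped among neighbours in that order.

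As a description with no test, the SAT1 log2 fold change under erastin was 0.04 (SE 0.08) in sh-LUC and 2.27 (SE 0.11) in sh-IGFBP6, a difference of 2.24 (SE 0.14). Without replicate 3 of sh-IGFBP6 erastin, the change in that line was 2.28, and without replicate 2 it was 2.05. DHA gave a log2 fold change of -0.55 (SE 0.09) in sh-LUC and 1.60 (SE 0.11) in sh-IGFBP6, so the level was lower in the first line and higher in the second. The untreated lines differed by -1.81 (SE 0.11), sh-IGFBP6 being 3.52-fold lower. Under DHA, whose libraries took no part in choosing the list, SAT1 was 1.27-fold higher in sh-IGFBP6 than in sh-LUC (log2 0.34, SE 0.09, edgeR adjusted p = 0.000237), and the 2 groups of libraries did not overlap. The order of the lines under DHA was therefore the reverse of that under vehicle. Both treatments are set against the same vehicle libraries within a line.

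**Figure D1:**
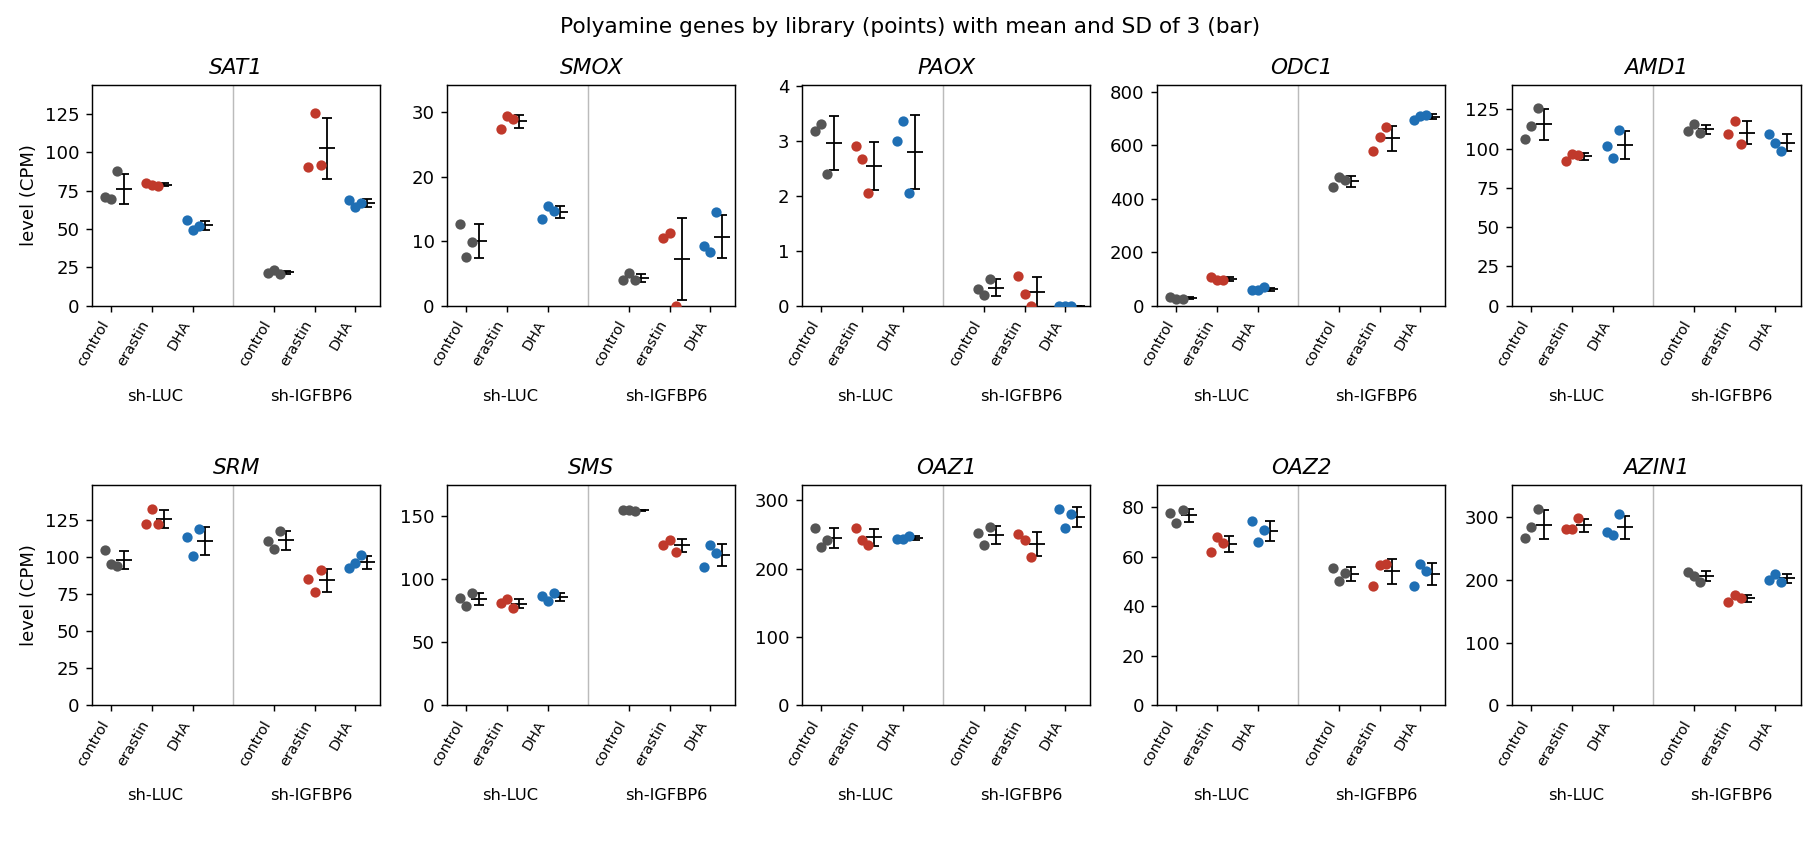
Level in CPM (vertical axes, from 0, a scale for each gene) of the 10 polyamine genes in every library (points), by treatment and line, with the mean and SD of 3 libraries (bars). SAT1 is lowest in untreated sh-IGFBP6 (21.7 CPM), ODC1 is high in all 9 sh-IGFBP6 libraries (444 to 714 CPM), and the SMOX zero is the shallow replicate 3 of sh-IGFBP6 erastin.

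SMOX, the spermine oxidase (chromosome 20, 4120980 to 4187747, plus strand), rose under erastin in both lines. It stood at 12.7, 7.51 and 9.82 CPM in sh-LUC control libraries and at 27.4, 29.4 and 28.9 CPM under erastin, a 2.89-fold rise (log2 1.53, SE 0.16, edgeR adjusted p = 1.21e-15). In sh-IGFBP6 it stood at 3.91, 5.01 and 3.94 CPM under vehicle and at 10.5, 11.3 and 0 CPM under erastin. The fitted rise there was 2.42-fold (log2 1.27, SE 0.24, edgeR adjusted p = 6.82e-06), and without the shallow replicate 3 it was log2 1.31 (edgeR adjusted p = 2.78e-06). All 3 sh-LUC erastin libraries lay above every other library of the series for this gene. DHA raised SMOX 2.36-fold in sh-IGFBP6, to 9.31, 8.29 and 14.6 CPM (log2 1.24, SE 0.23, edgeR adjusted p = 5.13e-06). In sh-LUC the DHA libraries stood at 13.4, 15.4 and 14.7 CPM, a 1.48-fold rise (log2 0.56, SE 0.18, edgeR adjusted p = 0.0149). It was no longer called when sh-LUC control replicate 2 (edgeR adjusted p = 0.189) or 3 (adjusted p = 0.0739) or sh-LUC DHA replicate 2 (adjusted p = 0.0555) was left out, nor in DESeq2 (adjusted p = 0.158).

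Between the untreated lines SMOX was 2.26-fold lower in sh-IGFBP6 (log2 -1.17, SE 0.25, edgeR adjusted p = 1.91e-05), and the libraries did not overlap. Under DHA it was 1.41-fold lower (log2 -0.50, SE 0.16, edgeR adjusted p = 0.00389), a call lost without sh-IGFBP6 DHA replicate 2 (adjusted p = 0.208), when the log2 difference was -0.27. The SMOX response to DHA was not called different between the lines in the fit over all libraries, although it was without that replicate (log2 0.90, edgeR adjusted p = 0.032). DHA libraries were 1.96-fold below erastin libraries in sh-LUC (log2 -0.97, SE 0.12, edgeR adjusted p = 3.3e-12).

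PAOX, the oxidase of acetylated polyamines (chromosome 10, 133379234 to 133391694, plus strand), was near the limit of counting, with 157 counts in all. The sh-LUC libraries held 30 counts under vehicle, 56 under erastin and 62 under DHA, between 2.05 and 3.36 CPM in each library. The sh-IGFBP6 libraries held 4 under vehicle, 5 under erastin and 0 under DHA, and the highest sh-IGFBP6 library stood at 0.54 CPM. The level of the filter was 2.18 CPM, which 8 of 9 sh-LUC libraries and 0 of 9 sh-IGFBP6 libraries reached. A gene let in by the line where it is high had to differ between the lines, so PAOX is given by its values in any comparison that involves sh-IGFBP6, with no test. Over the group, untreated libraries stood at 2.90 CPM in sh-LUC and 0.318 CPM in sh-IGFBP6. Under DHA sh-IGFBP6 was at least 13.3-fold lower, taking a count of 0 over the group as at most 3 counts, a floor that covers counting error only. Neither treatment was called for PAOX in sh-LUC. PAOX shares 158 exon bases with AL360181.3 on the same strand (271 counts in all), so its level is uncertain where the counting could split reads between them.

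ODC1, the first enzyme of polyamine synthesis (chromosome 2, 10439968 to 10448504, minus strand), rose under both treatments in both lines and was far higher in sh-IGFBP6. In sh-LUC it stood at 32.9, 25.9 and 26.8 CPM under vehicle, 109, 97.8 and 96.1 CPM under erastin and 57.9, 60.4 and 68.5 CPM under DHA. In sh-IGFBP6 it stood at 444, 481 and 471 CPM under vehicle, 579, 630 and 670 CPM under erastin and 697, 712 and 714 CPM under DHA. The lowest sh-IGFBP6 library was above the highest sh-LUC library in each treatment. Erastin raised ODC1 3.57-fold in sh-LUC (log2 1.84, SE 0.09, edgeR adjusted p = 4.14e-40) and 1.32-fold in sh-IGFBP6 (log2 0.40, SE 0.06, edgeR adjusted p = 7.03e-09). DHA raised it 2.21-fold in sh-LUC (log2 1.14, SE 0.09, edgeR adjusted p = 5.65e-21) and 1.52-fold in sh-IGFBP6 (log2 0.60, SE 0.05, edgeR adjusted p = 1.66e-18). No 2 of the 6 groups overlapped for ODC1.

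The untreated lines differed 16.5-fold in ODC1 (log2 4.04, SE 0.08, edgeR adjusted p = 1.76e-80), and the lines under DHA 11.3-fold (log2 3.50, SE 0.06, edgeR adjusted p = 1.18e-84). The DHA response, as a log2 fold change, was smaller in sh-IGFBP6, the difference being -0.54 (SE 0.11, edgeR adjusted p = 4.06e-05). For erastin the same difference was -1.44 (SE 0.11), a description with no test. DHA libraries lay below erastin libraries in sh-LUC (log2 -0.69, SE 0.07, edgeR adjusted p = 1.76e-17) and above them in sh-IGFBP6 (log2 0.21, SE 0.06, edgeR adjusted p = 0.00289). The last of these was lost without sh-IGFBP6 erastin replicate 1 (adjusted p = 0.102) and with no filter on low counts (adjusted p = 0.0545).

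AMD1, the decarboxylase that supplies aminopropyl groups (chromosome 6, 110874770 to 110895713, plus strand), was called once among these comparisons. In sh-LUC it stood at 106, 114 and 126 CPM under vehicle and at 92.2, 96.7 and 96 CPM under erastin, a fall of 1.22-fold (log2 -0.29, SE 0.07, edgeR adjusted p = 0.000288). In every sh-IGFBP6 library it lay between 98.4 and 118 CPM, and no comparison involving that line was called. DHA in sh-LUC gave 102, 93.8 and 112 CPM, with overlap, and was not called (log2 -0.18, SE 0.07, edgeR adjusted p = 0.0545). It was called with RLE factors (adjusted p = 0.0377), with a replicate block (adjusted p = 0.045) and on leaving out sh-LUC control replicate 1 (adjusted p = 0.0248) or sh-LUC DHA replicate 3 (adjusted p = 0.0108). DHA set against erastin in sh-LUC was called for AMD1 only without sh-LUC DHA replicate 2 (edgeR adjusted p = 0.0384).

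SRM, spermidine synthase (chromosome 1, 11054584 to 11060024, minus strand), rose under erastin in sh-LUC and fell in sh-IGFBP6. It stood at 105, 95 and 93.9 CPM in sh-LUC control libraries and at 122, 132 and 122 CPM under erastin (log2 0.37, SE 0.07, edgeR adjusted p = 5.91e-06). In sh-IGFBP6 it stood at 111, 105 and 118 CPM under vehicle and at 85.3, 76.2 and 91.4 CPM under erastin (log2 -0.44, SE 0.08, edgeR adjusted p = 2.63e-06). In both lines every erastin library lay on its own side of every vehicle library. Without replicate 3 of sh-IGFBP6 erastin the fall was log2 -0.44 (edgeR adjusted p = 3.47e-06). The difference between those responses was -0.81 (SE 0.11), a description with no test.

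DHA lowered SRM in sh-IGFBP6, to 92.5, 95.9 and 101 CPM (log2 -0.20, SE 0.07, edgeR adjusted p = 0.024). It was no longer called when sh-IGFBP6 control replicate 1 (edgeR adjusted p = 0.0511) or 3 (adjusted p = 0.111) or sh-IGFBP6 DHA replicate 1 (adjusted p = 0.0925) or 2 (adjusted p = 0.0805) was left out. The sh-LUC DHA libraries stood at 113, 100 and 119 CPM and were not called against vehicle. They were called with no filter (edgeR adjusted p = 0.029) and on leaving out sh-LUC control replicate 1 (adjusted p = 0.0433) or sh-LUC DHA replicate 2 (adjusted p = 0.013). The line difference in the DHA response was called (log2 -0.38, SE 0.10, edgeR adjusted p = 0.00291). Under DHA SRM was lower in sh-IGFBP6 than in sh-LUC (log2 -0.19, SE 0.07, edgeR adjusted p = 0.0087), a call lost without sh-LUC DHA replicate 3 (adjusted p = 0.091). Under vehicle it was higher (log2 0.19, SE 0.08, edgeR adjusted p = 0.0256). This last call did not hold on leaving out sh-LUC control replicate 2 (adjusted p = 0.086) or 3 (adjusted p = 0.11) or sh-IGFBP6 control replicate 3 (adjusted p = 0.0854), with RLE factors (adjusted p = 0.0604), with no filter (adjusted p = 0.0669) and in DESeq2 (adjusted p = 0.123).

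SMS, spermine synthase (chromosome X, 21940573 to 21994835, plus strand), was higher in sh-IGFBP6 and fell under both treatments in that line. The sh-IGFBP6 libraries stood at 155, 155 and 154 CPM under vehicle, 127, 131 and 122 CPM under erastin and 110, 127 and 121 CPM under DHA. The 9 sh-LUC libraries lay between 77 and 88.9 CPM, and neither treatment was called there. In sh-IGFBP6 the fall was log2 -0.26 under erastin (SE 0.07, edgeR adjusted p = 0.00177) and log2 -0.36 under DHA (SE 0.07, edgeR adjusted p = 2.86e-06). The DHA response differed between the lines (log2 -0.39, SE 0.10, edgeR adjusted p = 0.00164). SMS was 1.83-fold higher in untreated sh-IGFBP6 than in sh-LUC (edgeR adjusted p = 3.25e-21) and 1.40-fold higher under DHA (edgeR adjusted p = 1.49e-10).

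**Figure D2:**
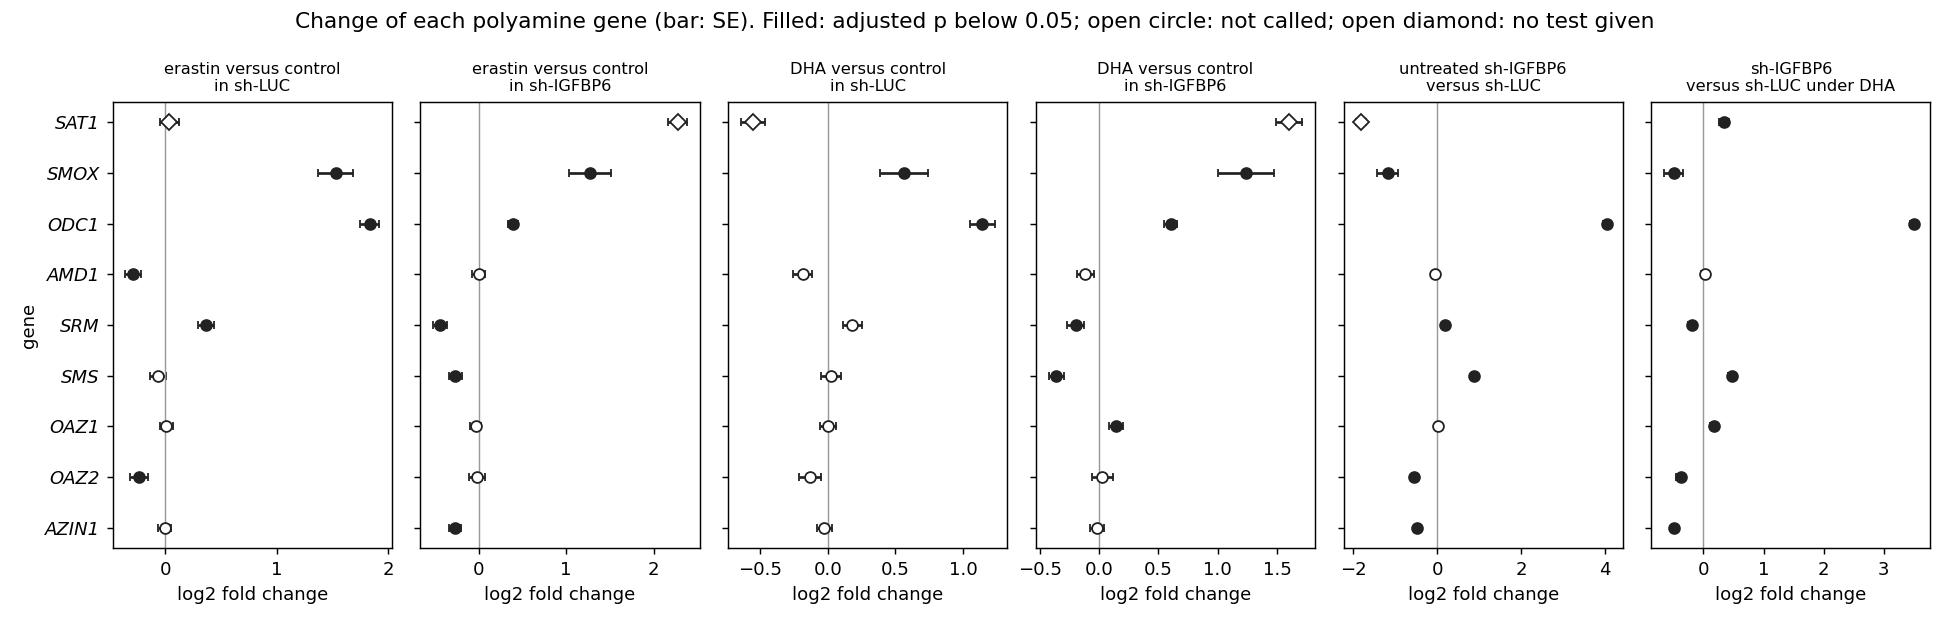
Log2 fold change (horizontal axes, a scale for each panel) with SE (bars) of 9 polyamine genes in 6 comparisons, filled where the edgeR adjusted p was below 0.05, open circles where not called, and diamonds for SAT1 where no test is given. PAOX is not drawn because sh-IGFBP6 DHA libraries hold no counts of it. ODC1 lies right of 0 in all 6 panels, up to 4.04 between untreated lines.

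OAZ1, the main antizyme (chromosome 19, 2269509 to 2273490, plus strand), was the steadiest of the antizyme genes. Its 18 libraries lay between 217 and 287 CPM, and erastin was called in neither line. In sh-IGFBP6 it stood at 252, 235 and 261 CPM under vehicle and at 287, 260 and 280 CPM under DHA, with overlap (log2 0.14, SE 0.06, edgeR adjusted p = 0.0478). That call was lost in 15 of 24 other settings besides library size alone, among them DESeq2 (adjusted p = 0.189) and leaving out sh-IGFBP6 control replicate 2 (adjusted p = 0.297) or sh-IGFBP6 DHA replicate 1 (adjusted p = 0.191). It was also lost without the shallow replicate 3 of sh-IGFBP6 erastin (adjusted p = 0.0742), which is in neither group. Under DHA OAZ1 was 1.12-fold higher in sh-IGFBP6 (log2 0.17, SE 0.06, edgeR adjusted p = 0.0055), lost in DESeq2 (adjusted p = 0.0703) and with no filter (adjusted p = 0.476). OAZ1 shares 236 exon bases with JSRP1 on the other strand (63 counts, against 23379 of OAZ1) and 220 with AC005258.1 on the same strand (0 counts).

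OAZ2, a second antizyme (chromosome 15, 64687573 to 64703281, minus strand), was lower in sh-IGFBP6. It stood at 77.8, 73.6 and 78.8 CPM in untreated sh-LUC and at 55.7, 50.3 and 53.4 CPM in untreated sh-IGFBP6, 1.45-fold lower (log2 -0.54, SE 0.09, edgeR adjusted p = 5.02e-08). Under DHA the values were 74.4, 66.2 and 70.7 CPM against 48.4, 57 and 54.2 CPM (log2 -0.38, SE 0.08, edgeR adjusted p = 1.03e-05). Neither pair of groups overlapped. Erastin lowered OAZ2 in sh-LUC to 61.9, 68.2 and 65.6 CPM (log2 -0.23, SE 0.08, edgeR adjusted p = 0.0103). The fall was not called on leaving out sh-LUC control replicate 3 (adjusted p = 0.0639) or sh-LUC erastin replicate 1 (adjusted p = 0.0578) and with no filter (adjusted p = 0.132). No treatment was called in sh-IGFBP6. OAZ2 overlaps the antisense gene AC100830.3, which had 0 counts.

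AZIN1, the antizyme inhibitor (chromosome 8, 102826357 to 102893864, minus strand), was lower in sh-IGFBP6 and fell further there under erastin. The sh-LUC libraries stood at 267, 285 and 313 CPM under vehicle, 281, 282 and 300 CPM under erastin and 276, 271 and 305 CPM under DHA, with neither treatment called. The sh-IGFBP6 libraries stood at 213, 207 and 197 CPM under vehicle, 166, 177 and 171 CPM under erastin and 201, 210 and 197 CPM under DHA. The erastin fall was log2 -0.27 (SE 0.07, edgeR adjusted p = 0.000687), and its libraries lay below all others of the series. The lines differed 1.40-fold both untreated (log2 -0.49, SE 0.06, edgeR adjusted p = 2.27e-12) and under DHA (log2 -0.48, SE 0.06, edgeR adjusted p = 4.09e-13). AZIN1 shares 344 exon bases with AZIN1-AS1 (267 counts, against 23247), and whether counting used strand is not given in the sources used here.

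Counted together, with SAT1 left out because it was chosen on these libraries and PAOX because of how it entered the fit, erastin in sh-LUC raised 3 of 8 genes (SMOX, ODC1, SRM) and lowered 2 (AMD1, OAZ2). Of all 15189 genes tested, 45.9% were called in that comparison, 21.4% higher and 24.4% lower, so the 5 of 8 called is near the background. Erastin in sh-IGFBP6 raised 2 of 8 (SMOX, ODC1) and lowered 3 (SRM, SMS, AZIN1), where 29.0% of all genes were called, 14.7% higher and 14.3% lower. Without the shallow replicate 3 the same count of 5 was found. The log2 fold changes of ODC1, SMS and AZIN1 were then 0.38, -0.26 and -0.27. DHA in sh-LUC raised 2 of 8 (SMOX, ODC1) and lowered 0, against 16.8% of all genes, 7.14% higher and 9.63% lower. DHA in sh-IGFBP6 raised 3 of 8 (SMOX, ODC1, OAZ1) and lowered 2 (SRM, SMS), against 34.2%, 17.4% higher and 16.8% lower. The medians of the 8 log2 fold changes were 0.00, -0.02, 0.01 and 0.00 in these 4 comparisons, beside -0.02, 0.00, 0.01 and 0.00 over all genes tested.

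Between untreated lines, 3 of 8 genes were higher in sh-IGFBP6 (ODC1, SRM, SMS) and 3 lower (SMOX, OAZ2, AZIN1), where 64.6% of all genes were called, 32.5% higher and 32.1% lower. Under DHA, with SAT1 included, 4 of 9 were higher (SAT1, ODC1, SMS, OAZ1) and 4 lower (SMOX, SRM, OAZ2, AZIN1), against 69.9%, 35.1% higher and 34.8% lower, and only AMD1 was not called. The DHA response differed between lines for 3 of 8 (ODC1, SRM, SMS), all lower in sh-IGFBP6, against 20.6% of all genes, 10.4% higher and 10.2% lower. DHA libraries set against erastin libraries in sh-LUC gave 0 of 8 higher and 3 lower (SMOX, ODC1, SRM), where 50.2% of all genes were called, 26.0% higher and 24.2% lower. The SRM call there (log2 -0.18, SE 0.06, edgeR adjusted p = 0.01) was lost without sh-LUC DHA replicate 2 (adjusted p = 0.193) or sh-LUC erastin replicate 2 (adjusted p = 0.0975).

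In sh-IGFBP6, DHA against erastin gave 4 of 8 higher (ODC1, SRM, OAZ1, AZIN1) and 0 lower, against 25.9% of all genes, 13.1% higher and 12.8% lower. AZIN1 was higher by log2 0.25 (SE 0.07, edgeR adjusted p = 0.00197), SRM by 0.24 (SE 0.08, edgeR adjusted p = 0.0163) and OAZ1 by 0.17 (SE 0.06, edgeR adjusted p = 0.0278). These calls depended on single libraries: AZIN1 was lost without sh-IGFBP6 erastin replicate 1 (adjusted p = 0.0657), and SRM (adjusted p = 0.226) and OAZ1 (adjusted p = 0.133) without erastin replicate 2. Without sh-IGFBP6 DHA replicate 1 OAZ1 was lost (adjusted p = 0.12), and without replicate 3 SRM (adjusted p = 0.0744) and OAZ1 (adjusted p = 0.0807). Without the shallow erastin replicate 3, OAZ1 was lost (adjusted p = 0.0808) and 3 of 8 genes were called.

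To compare levels between genes, CPM was divided by the length of the exons in kilobases. In untreated sh-LUC the order of these levels was OAZ1 (71.1 ± 4.19 CPM per kb, SD, n = 3), SRM (51.6 ± 3.14), AZIN1 (44.9 ± 3.59), SMS (39.1 ± 2.30), SAT1 (30.5 ± 4.04), AMD1 (16.4 ± 1.42), OAZ2 (10.0 ± 0.359), ODC1 (9.61 ± 1.29), SMOX (3.40 ± 0.888) and PAOX (1.30 ± 0.217). Neighbours whose SDs meet, such as OAZ2 and ODC1, are not set apart by these libraries. In untreated sh-IGFBP6 ODC1 came first at 157 ± 6.47 CPM per kb and SAT1 seventh, at 8.69 ± 0.493, with OAZ1 (72.6 ± 3.82) and SMS (71.5 ± 0.289) together in between. Under erastin SAT1 stood at 31.6 ± 0.383 CPM per kb in sh-LUC and 41.0 ± 7.99 in sh-IGFBP6, and ODC1 at 34.0 ± 2.34 and 211 ± 15.4.

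**Figure D3:**
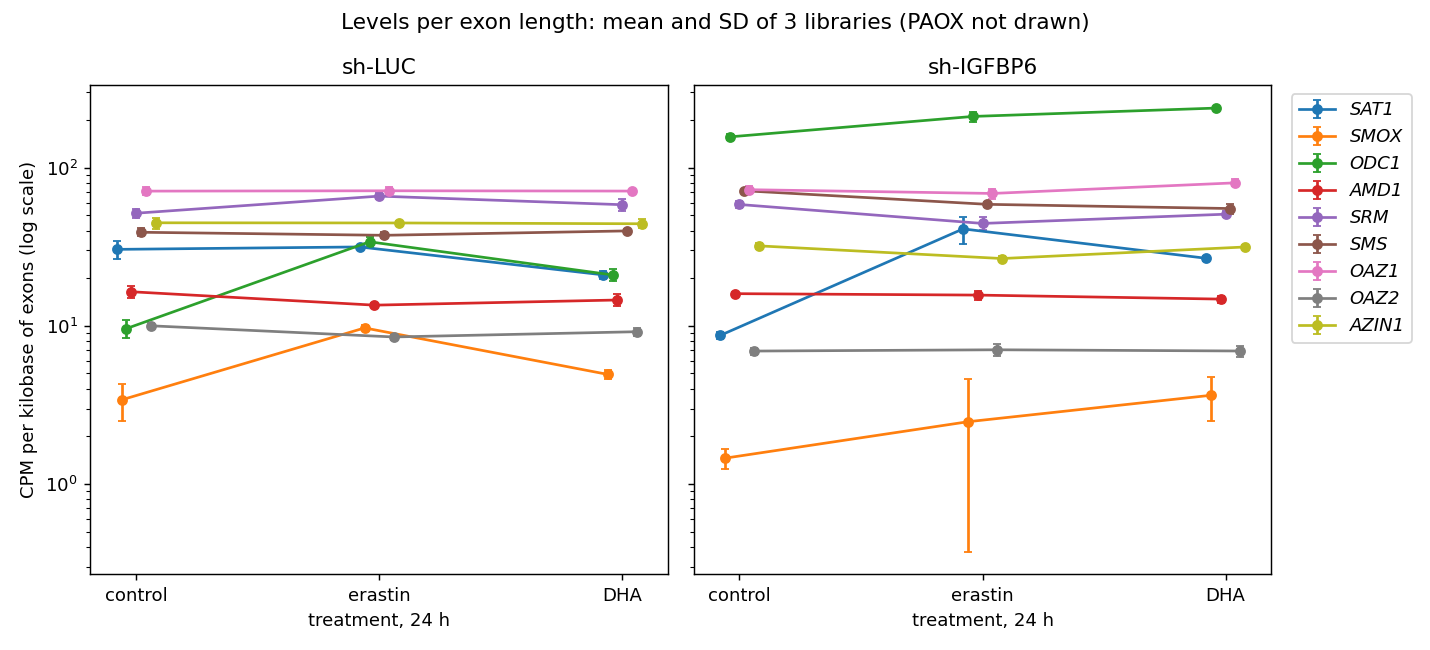
CPM per kilobase of exons (log axis) of 9 polyamine genes by treatment in each line, mean and SD of 3 libraries, with the lower bar shortened where it would reach 0; PAOX is not drawn. ODC1 sits among the low genes in untreated sh-LUC (9.61) and above all others in sh-IGFBP6 (157 to 238).

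The wider pathway was taken from lists that hold 44 further genes, of which 35 passed the filter. Under erastin 17 of 35 rose and 7 fell in sh-LUC (45.9% of all genes called) and 6 rose and 6 fell in sh-IGFBP6 (29.0%). Under DHA 6 rose and 3 fell in sh-LUC (16.8%), and 6 rose and 9 fell in sh-IGFBP6 (34.2%). The 9 called for DHA in sh-LUC were 5 without sh-LUC control replicate 3, and the 15 called in sh-IGFBP6 were 8 without sh-IGFBP6 DHA replicate 2. Between untreated lines 18 were higher in sh-IGFBP6 and 7 lower (64.6%). The 9 genes not tested were OAZ3 (64 counts over 18 libraries), ARG1 (34), SLC22A2 (5), MAT1A (2), ALOX15 (2), SATL1 (1), AOC1 (0), OTC (0) and MTAP (0). A total of 0 over all 18 libraries allows up to 0.0320 CPM for MTAP, the methylthioadenosine phosphorylase that clears the by-product of spermidine and spermine synthesis.

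Among arginine and ornithine supply genes, SLC7A1, an arginine importer, rose under erastin in sh-LUC from 240 ± 1.2 to 661 ± 31 CPM (SD, n = 3; log2 1.46, SE 0.06, edgeR adjusted p = 3.01e-49). It stood at 349 ± 11 and 364 ± 21 CPM in sh-IGFBP6, where erastin was not called. ASS1, argininosuccinate synthase, rose from 3.84 ± 0.51 to 23.6 ± 0.20 CPM in sh-LUC (log2 2.60, SE 0.21). In sh-IGFBP6 ASS1 was low under vehicle and erastin (0.676 ± 0.49 and 1.28 ± 1.3 CPM), and its call (edgeR adjusted p = 0.0165) was lost without sh-IGFBP6 erastin replicate 1 (adjusted p = 0.493) or sh-IGFBP6 control replicate 2 (adjusted p = 0.0697) or 3 (adjusted p = 0.104). OAT, which moves ornithine toward glutamate and proline, fell under erastin in sh-LUC (log2 -0.44, SE 0.07), from 130 ± 18 to 95.8 ± 4.5 CPM. SLC7A2, a second cationic amino acid transporter, was higher in untreated sh-IGFBP6 (65.0 ± 0.63 CPM) than in sh-LUC (14.3 ± 2.3 CPM; log2 2.21, SE 0.12). In the list, erastin raised 4 of 8 tested genes and lowered 1 in sh-LUC, where 45.9% of all genes were called, and the 5 called were 3 without sh-LUC control replicate 1. In sh-IGFBP6, where 29.0% of all genes were called, only ASS1 and SLC7A2 were called. ASS1 reached the level of the filter in 9 sh-LUC libraries and 1 sh-IGFBP6 library. The SLC7A2 value there (log2 -0.24, SE 0.09, edgeR adjusted p = 0.0424) was not called in DESeq2 (adjusted p = 0.122), with no filter (adjusted p = 0.106), with a replicate block (adjusted p = 0.0663) or on leaving out any 1 of the 6 libraries compared (adjusted p from 0.0613 to 0.134). The list had 0 called there in DESeq2 and without sh-IGFBP6 control replicate 2 or 3 or sh-IGFBP6 erastin replicate 1.

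In the methionine cycle and methylthioadenosine salvage, MAT2A, which makes S-adenosylmethionine, rose under erastin in sh-LUC from 220 ± 8.1 to 347 ± 17 CPM (log2 0.65, SE 0.06) and fell in sh-IGFBP6 from 313 ± 9.6 to 254 ± 29 CPM (log2 -0.23, SE 0.06). Its regulatory partner MAT2B fell in sh-LUC (log2 -0.54, SE 0.09), as did ADI1 of the salvage route (log2 -0.50, SE 0.08), while MTR, methionine synthase, rose (log2 0.38, SE 0.07). The list had 4 of 9 higher and 3 lower under erastin in sh-LUC (45.9% of all genes called), and 0 higher and 2 lower in sh-IGFBP6 (29.0%). The 2 in sh-IGFBP6 became 1 in DESeq2, with no filter, with a replicate block and on leaving out sh-IGFBP6 control replicate 2 or 3 or sh-IGFBP6 erastin replicate 2 or 3. Of the hypusine genes, EIF5A, the protein that carries the spermidine-derived hypusine residue, rose under erastin in sh-LUC (log2 0.19, SE 0.05) and fell in sh-IGFBP6 (log2 -0.28, SE 0.06). EIF5A2 rose under erastin in sh-LUC (log2 0.57, SE 0.12). The enzymes that make hypusine, DHPS and DOHH, were called under neither treatment. DOHH was higher in sh-IGFBP6 untreated (log2 0.51, SE 0.15).

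Among transport genes, SLC3A2, a heavy chain of amino acid exchangers linked to polyamine export, rose under erastin in sh-LUC from 156 ± 10 to 661 ± 23 CPM (log2 2.08, SE 0.06) and in sh-IGFBP6 from 168 ± 14 to 370 ± 42 CPM (log2 1.06, SE 0.06). Under DHA it rose by log2 0.67 (SE 0.06) in sh-LUC and 1.57 (SE 0.06) in sh-IGFBP6, a difference of 0.90 (SE 0.08, edgeR adjusted p = 1.34e-16), with sh-IGFBP6 larger. ATP13A3, a polyamine transporter of endosomes, rose under erastin in sh-LUC (log2 0.74, SE 0.06) and in sh-IGFBP6 (log2 0.47, SE 0.06). ATP13A2, the lysosomal exporter, fell under erastin in sh-LUC (log2 -0.47, SE 0.07). Its fall in sh-IGFBP6 (log2 -0.23, SE 0.07) was lost without sh-IGFBP6 erastin replicate 2 (adjusted p = 0.0787). SLC12A8 was lower in untreated sh-IGFBP6 (1.76 ± 0.82 CPM) than in sh-LUC (17.1 ± 0.88 CPM; log2 -3.34, SE 0.27). In the list, erastin raised 4 of 8 and lowered 3 in sh-LUC (45.9% of all genes called), and raised 2 and lowered 2 in sh-IGFBP6 (29.0%). The 7 called in sh-LUC were 4 without sh-LUC control replicate 3.

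Among genes known to regulate SAT1 or ODC1, MYC, which acts on ODC1, rose under erastin in sh-LUC from 76.9 ± 3.5 to 174 ± 11 CPM (log2 1.18, SE 0.07) and in sh-IGFBP6 from 52.9 ± 5.5 to 94.1 ± 4.5 CPM (log2 0.78, SE 0.09). MYC was lower in untreated sh-IGFBP6 than in sh-LUC (log2 -0.52, SE 0.09). ATF4 rose under erastin by log2 1.20 (SE 0.06) in sh-LUC and 0.51 (SE 0.07) in sh-IGFBP6, and under DHA by 0.52 (SE 0.06) and 0.48 (SE 0.06). NFE2L2, which codes for NRF2, rose under erastin by log2 0.68 (SE 0.07) in sh-LUC and 0.36 (SE 0.07) in sh-IGFBP6. Under DHA NFE2L2 was called higher in sh-IGFBP6 (log2 0.38 to 0.47 on leaving out each library) and was not called in sh-LUC. Its DHA response was called larger in sh-IGFBP6, the log2 difference running from 0.34 to 0.52 on leaving out each library. Of the SAT1 and ODC1 relatives, AZIN2 and SAT2 were called under no treatment in either line. SAT2 was lower in untreated sh-IGFBP6 (11.7 ± 1.1 CPM) than in sh-LUC (17.6 ± 0.46 CPM; log2 -0.58, SE 0.17).

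**Figure D4:**
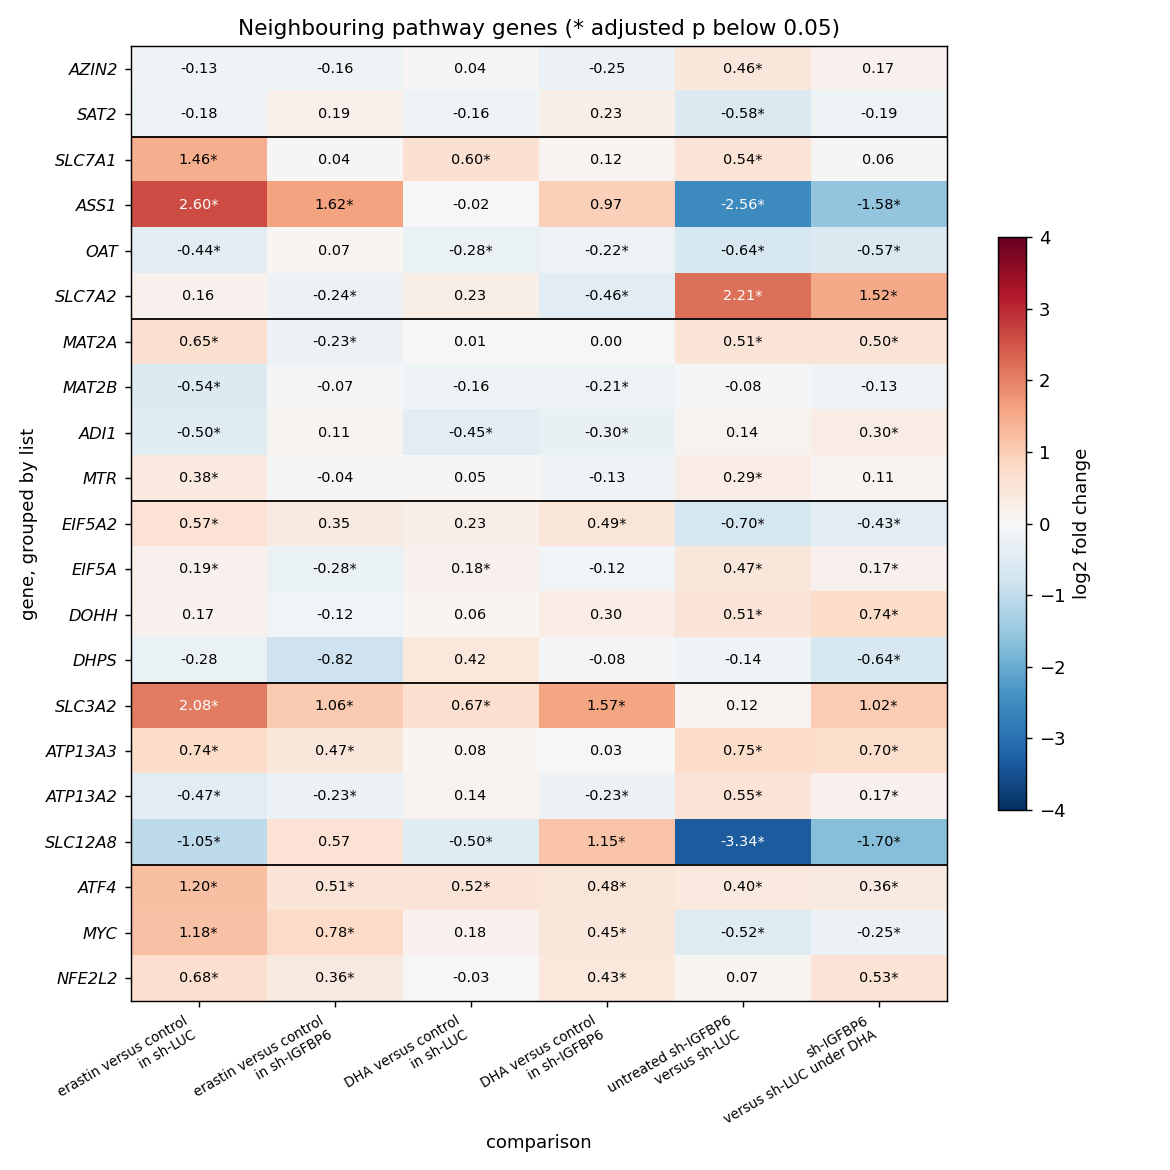
Log2 fold change (colour and printed value) of named pathway genes, grouped by list, in 6 comparisons, with an asterisk where the edgeR adjusted p was below 0.05. SLC3A2 is called in all 4 treatment columns, and SLC12A8 has the lowest value, -3.34, between untreated lines.

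Genes most like SAT1 were ranked by the Pearson correlation of 6 group means of log2 CPM, over 11517 tested genes that averaged 5 CPM or more. The points share libraries, and with 6 points the ranking is a description. ZNF808 (r = 0.994), ACBD3 (0.978), ZBTB1 (0.977) and RNF6 (0.973) were among the highest. MPHOSPH9 (-0.977), MCM2 (-0.973), NDUFA9 (-0.970), KPNA3 (-0.969) and KNTC1 (-0.964) came lowest. Their ranges were narrower than that of SAT1: ACBD3 group means ran from 41.4 CPM in untreated sh-IGFBP6 to 68.6 CPM in sh-IGFBP6 erastin, and MCM2, a replication helicase subunit, from 134 down to 90.9 CPM between the same groups. Over the 18 libraries the correlation was 0.584 for ZNF808 and 0.917 for ZBTB1.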

How the data were processed

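Total RNA was depleted of ribosomal RNA and made into libraries with an MGI kit, per the labels' protocols. Reads were processed with cutadapt 4.4, STAR 2.7.7a and featureCounts against GRCh38, per the submitters' processing notes; the sources used here do not give the annotation release or strand setting. The authors deposited raw gene counts for 18 libraries. One gene had blank counts, and the lines that name no gene held at most 0.0108% of a library; all were left out. Symbols came from a reference table and from GENCODE release 29, which also gave GRCh38 coordinates and exon lengths.

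Counts were fitted over all 18 libraries with edgeR 4.0.16 in R 4.3.3 (TMM, filterByExpr with a minimum count of 10 and total of 15, 15189 genes, 1 coefficient per group, robust quasi-likelihood tests, 12 residual degrees of freedom, biological coefficient of variation 6.29%). A call is a p below 0.05 after Benjamini-Hochberg adjustment over all genes tested. The fit was also run on simulated counts in which chosen genes were only raised, and the outcome is not reported here. Levels are CPM on TMM effective library sizes, and log2 group means for the likeness ranking used a prior count of 2. Tables and figures were made with Python 3.11.15 (pandas 2.3.3, matplotlib 3.10.9).

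The polyamine genes, the other lists and the tests were chosen with earlier results of these data known. SAT1 was tested only between lines under DHA, whose libraries took no part in its choice. PAOX was left out of counts of called genes in the results after its counts were seen, since it passed the filter through sh-LUC alone. All 10 polyamine genes are named, with up to 4 genes per other list (the smallest p in any treatment comparison), list genes not tested, and the 5 genes most and least like SAT1; a few of these are not reported here. No gene chosen after its values were seen is named outside this rule, except overlapping genes, markers and the targeted gene. Alternatives were RLE factors, library size only, DESeq2 1.42.0, no filter, MT-RNR1 and MT-RNR2 removed, only the groups compared, a replicate block, and leaving out each library. A count of 0 was taken as at most 3 counts.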

Additional observations from a re-analysis of the deposited data

Results flagged for a closer look

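The ODC1 response to DHA differed between the lines by log2 -0.54 (rise of 1.14 in sh-LUC, 0.60 in sh-IGFBP6), SRM by -0.38 and SMS by -0.39, each by an interaction test in edgeR (adjusted p = 4.06e-05, 0.00291 and 0.00164), with sh-IGFBP6 the lower. With library size only the differences were log2 -0.66, -0.51 and -0.53, and none was called (adjusted p = 0.282, 0.262 and 0.251).

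SAT1 moved in opposite directions under DHA in the lines, every sh-LUC library below and every sh-IGFBP6 library above its own vehicle libraries, a difference of 2.16 on the log2 scale. The difference was not tested, since SAT1 was chosen on the vehicle libraries. SRM moved in opposite directions under erastin in the same way, with a difference of -0.81, which was not tested because the list was chosen on that contrast.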

How the results depend on the processing

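Of 41 calls on polyamine genes other than PAOX, 28 held under every alternative tried apart from library size only, and 13 were lost under at least 1 other; none changed direction. Library size only, with no TMM, ended 23 of the 41. The counts of called polyamine genes that follow leave out PAOX. Library size only gave 2 of 8 for erastin in sh-LUC (4571 of 15189 genes in all) and 3 of 8 in sh-IGFBP6 (2728 in all). For DHA in sh-IGFBP6 it gave 1 of 8 (2579 in all), and for the line difference in the DHA response 0 of 8 (1041 in all). For DHA against erastin it gave 1 of 8 in sh-LUC (5478 in all) and 0 of 8 in sh-IGFBP6 (1541 in all). The ODC1 rise under erastin in sh-IGFBP6 was then log2 0.03 (adjusted p = 0.959), and SAT1 between lines under DHA was at log2 0.31 (adjusted p = 0.0592), beside 0.34. That scaling moved the median of all genes from 0.00 to -0.19 for erastin in sh-IGFBP6 and from 0.01 to 0.17 for DHA against erastin in sh-LUC, and its calls for erastin in sh-IGFBP6 split into 630 higher and 2098 lower, beside 2226 and 2178. Genes called in all for DHA in sh-LUC were 2546, with 756 for library size only and 1565 in DESeq2. For DHA against erastin in sh-IGFBP6 the total was 1541 for library size only and 2422 in DESeq2. The TMM factor was 0.431 for the shallow replicate 3 of sh-IGFBP6 erastin and between 0.953 and 1.12 for the other libraries. The cause of these shifts was not tested.

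DESeq2 called 1 of 8 polyamine genes for DHA in sh-LUC, beside 1565 of 15189 genes in all. For DHA against erastin in sh-IGFBP6, DESeq2 called 2 of 8, beside 2422 of 15189 in all. There no filter gave 1 (2926 of 40442 in all) and only the groups compared gave 3 (3674 of 13117 in all). Leaving out each library in turn gave 1 to 4 of 8 for DHA in sh-LUC (1779 to 2596 genes in all). It gave 3 to 5 for DHA in sh-IGFBP6 (4268 to 5303 in all). For DHA against erastin in sh-IGFBP6 it gave 2 to 4 (2592 to 4029 in all). The SAT1 line difference in the erastin response then ran from 2.02 to 2.40. Replicate numbers did not pair the libraries (same-number correlations from -0.0398 to 0.106 over 45 pairs of libraries, 1 of them above 0.1). With a replicate block, 5 of 8 polyamine genes were called for erastin in sh-LUC and 5 in sh-IGFBP6 (7026 and 4394 of 15189 genes in all). For DHA 3 were called in sh-LUC and 5 in sh-IGFBP6 (2642 and 5304 in all). Between lines 6 of 8 were called untreated and 8 of 9 under DHA (9842 and 10657 in all). The line difference in the DHA response had 3 of 8 (3221 in all). DHA against erastin had 3 of 8 in sh-LUC and 4 of 8 in sh-IGFBP6 (7708 and 3940 in all). The block ended none of the calls on polyamine genes and added AMD1 for DHA in sh-LUC. Depth limited PAOX, with 157 counts in all.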
